A study of Mus musculus with 8 samples.

Results

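The 42 genes described here encode RNA polymerase I subunits and cofactors, nucleolar proteins and factors that process ribosomal RNA and assemble ribosomal subunits. They were taken from a given list of symbols, matched through their Ensembl identifiers, and all 42 were found among the 32728 genes of the count table. All 42 also passed the filter on low counts, which left 16719 genes for testing. Ribosome biogenesis starts in the nucleolus, where RNA polymerase I transcribes the ribosomal RNA precursor. Small nucleolar ribonucleoproteins (snoRNPs) modify that precursor, and large assemblies of proteins cut and fold it into the 40S and 60S subunits before export. Growth factor signals and the transcription factor Myc are known to raise this programme in proliferating cells, the intestinal epithelium among them.

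RNA came from mouse colon cancer organoids called APS, in which Apc, Trp53 and Smad4 were knocked out by CRISPR in a C57BL/6 background. Organoids are cultures that grow in a gel as small hollow or solid balls of epithelium. The 8 libraries covered 2 organoid lines in 2 media, with 2 libraries each. The question was what changes when EGF, the epidermal growth factor that the organoids normally receive, is left out. In the noEGF groups, organoids of CTO19 (labelled male) and of apsMC706 (labelled female) had grown for 7 days in medium lacking EGF. In the EM groups, the same lines had grown for 3 days in control medium with B27, noggin, galunisertib (an inhibitor of the TGF-beta receptor) and EGF. Absence of EGF and days in culture therefore cannot be told apart, nor can line and labelled sex. The submitters call the lines biological replicates of one genotype. The libraries within a line are not said to come from separate cultures, so the spread between them may be technical. P-values within a line, within a medium and for the difference of responses measure that spread. P-values over both lines also take in how far the responses of the 2 lines differ.

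Library totals were 35650262 to 38953838 counts, and the counts of a single member in a library ran between 890 (Rrp12) and 83747 (Ncl). Gene positions are those of GENCODE M21 on build GRCm38. Levels below are counts scaled to a library of 1000000 (CPM) with the TMM factor, in which 3 counts correspond to 0.0745 to 0.0868 CPM. Transcripts of the edited genes were present in all 8 libraries, which says nothing about the edits: Apc at 59.8 to 198 CPM, Trp53 at 13.0 to 33.3 CPM and Smad4 at 10.8 to 39.9 CPM. Of 10 epithelial markers, Epcam (345 to 648 CPM), Cdh1 (591 to 941 CPM) and the keratins Krt8, Krt18 and Krt19 were high everywhere. Cldn7 lay at 91.3 to 240 CPM, Vil1 at 25.8 to 226 CPM and Lgals4 at 8.39 to 405 CPM. Cdx1 never exceeded 4 counts and Cdx2 lay at 0.861 to 10.2 CPM. In EM, 6 of the 9 epithelial markers tested were lower in CTO19 than in apsMC706 (33.8% of all tested genes) and 2 higher (37.5%). At or under 3 counts in every library were 4 of 9 fibroblast markers (Col1a2, Lum, Pdgfrb, Thy1), the immune markers Cd3d and Lyz2, and 1 of 5 endothelial markers (Kdr). Summed immune markers reached 6.29 to 8.24 CPM in CTO19 noEGF libraries and 0.815 to 1.07 CPM in CTO19 EM libraries, and at most 0.627 CPM in apsMC706. Csf1r alone reached 7.51 CPM, whereas no other immune marker exceeded 0.696 CPM (Itgam) in any library, and the general marker Ptprc stayed at or under 0.14 CPM. Summed endothelial markers, chiefly Vwf (1.16 to 27.5 CPM), reached 7.95 to 8.50 CPM in CTO19 noEGF against 2.50 to 2.95 CPM in CTO19 EM, and 28.0 to 28.1 CPM in apsMC706 noEGF against 6.61 to 7.74 CPM in apsMC706 EM. Summed fibroblast markers were at 38.29 to 40.9 CPM in CTO19 noEGF against 32.14 to 33.75 CPM in CTO19 EM. In apsMC706 they were at 19.5 to 20.26 CPM in noEGF against 16.1 to 16.83 CPM in EM. The share of counts in genes of the mitochondrial genome was 4.13 to 5.19% in the noEGF libraries and 2.94 to 3.68% in the EM libraries.

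Without EGF, transcripts of the ribosome biogenesis genes were lower in both lines. The 42 genes together took 0.541 and 0.516% of all counts in the CTO19 noEGF libraries, against 0.868 and 0.872% in the CTO19 EM libraries. In apsMC706 they took 0.682 and 0.701% in noEGF, against 1.04 and 1.05% in EM. The shares of the media did not overlap in either line. Ncl and Npm1, which encode the most abundant nucleolar proteins, made up 34.8 to 38.9% of the members' counts. Leaving both out, the shares were 0.352 and 0.337% in CTO19 noEGF against 0.55 and 0.544% in CTO19 EM, and 0.436 and 0.452% in apsMC706 noEGF against 0.641 and 0.642% in apsMC706 EM. In bulk RNA, fewer cells of a type and less RNA per cell cannot be told apart, and ribosomal RNA itself, which has no poly(A) tail, was not selected for these libraries.

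Over both lines, 38 of the 42 genes were lower in noEGF at an adjusted p under 0.05 by edgeR's quasi-likelihood test, and 0 were higher. Among all tested genes, 23.3% were lower and 25.5% higher by the same rule. The median log2 fold change of the 42 genes was -0.65, against 0.03 for all tested genes, and single genes lay between -1.18 (Rrp12) and -0.12 (Ltv1). The 4 genes that did not pass were Ltv1, Rrp1b, Noc2l and Gnl3. Both noEGF libraries lay below both EM libraries in each line for 39 of 42 genes, a pattern that 24.4% of all tested genes had. The exceptions were Ltv1, Rrp1b and Gnl3. With both libraries of a group added up, so that the 2 lines are the replicates, all 42 log2 fold changes were negative but 0 members passed in edgeR. At an unadjusted p under 0.05, 29 were lower in that fit, and adjusted p-values ran between 0.0846 and 0.843. That fit has 1 residual degree of freedom and called 84 of 18170 genes.

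A list of 40 DNA replication and mitosis genes moved the same way, with 40 of 40 lower in noEGF over both lines, against 23.3% of all tested genes. Their summed level was 4412 and 4115 CPM in CTO19 noEGF against 6980 and 6795 CPM in CTO19 EM. In apsMC706 it was 3249 and 3237 CPM in noEGF against 8658 and 8792 CPM in EM. The part of these genes, of the other cell type markers and of the mitochondrial share in the fall of the ribosome biogenesis genes was not tested.

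**Figure D1:**
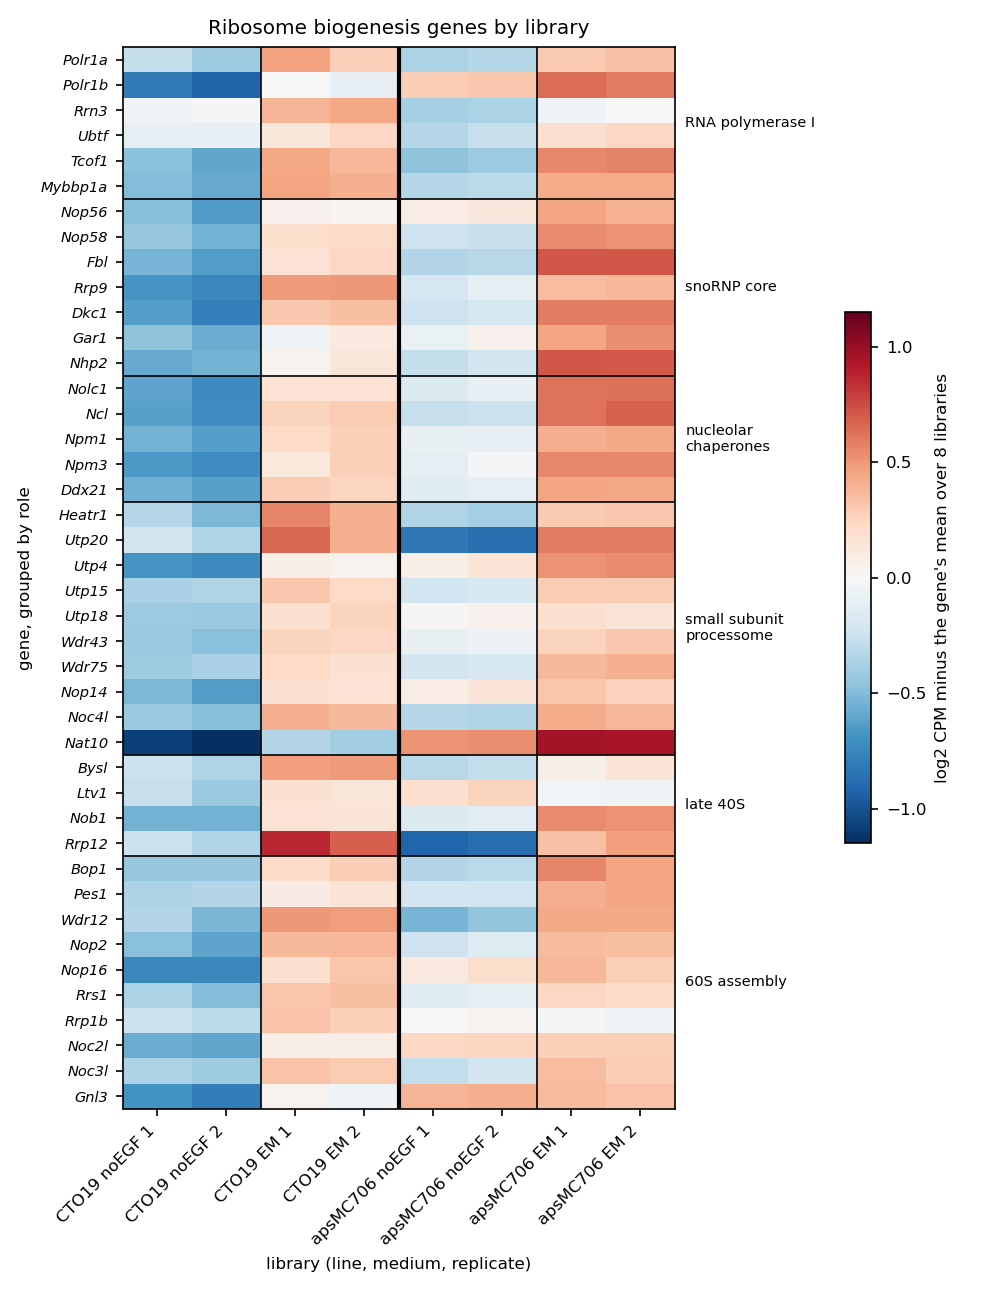
Level of each of the 42 genes (rows, grouped by role) in each of the 8 libraries (columns), as log2 CPM minus that gene's mean over the libraries; red is above and blue below that mean. The noEGF columns are mostly blue and the EM columns mostly red, while Ltv1, Rrp1b, Noc2l and Gnl3 are not lower in apsMC706 noEGF by the test.

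Promoters of the members are shown because these genes moved together and because the E-box, the sequence that Myc and related factors bind, is known from genes of this kind. RefSeq promoter windows (250 bases before to 50 bases after the start site, build GRCm38.p6) were given for 36 of the 42 genes. The canonical E-box, CACGTG, which reads the same on both strands, occurred in 9 of 36 windows (25%), against 7.24% of 27025 gene windows and 9.61% of the 11484 windows of tested genes. The variant CACGCG, searched on both strands, where it may also read CGCGTG, occurred in 10 of 36 (27.8%), against 9.41% of all windows and 16.6% of those of tested genes. Either motif occurred in 17 of 36 (47.2%), against 15.6 and 24.3%. In the gene lists described below, the canonical E-box occurred in 25% of windows of other small subunit processome and 40S factors. The share was 17.5% for other 60S factors, 11.8% for other RNA polymerase I factors and 26.7% for RNA polymerase III. Other snoRNP genes had 0%, the nuclear exosome 8.33%, ribosomal proteins 8.77%, and DNA replication and mitosis genes 9.38%. Median GC content was 58.8% in the members, 52.7% over all windows and 60% over tested genes. The following stretches, the 120 bases just before the start site of 5 members with a match there, show where the motifs lie, with the motif in capitals. They are written 5′ to 3′ on the strand of the gene, and in Mybbp1a both strands of the variant motif overlap.
Rrn3 (chr16:13780579-13780698, plus strand): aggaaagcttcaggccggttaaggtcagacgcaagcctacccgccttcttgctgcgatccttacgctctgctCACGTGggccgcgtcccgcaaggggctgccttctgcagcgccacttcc
Mybbp1a (chr11:72441207-72441326, plus strand): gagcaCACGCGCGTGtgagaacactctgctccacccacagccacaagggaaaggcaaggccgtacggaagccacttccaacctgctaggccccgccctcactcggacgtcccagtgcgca
Nolc1 (chr19:46075727-46075846, plus strand): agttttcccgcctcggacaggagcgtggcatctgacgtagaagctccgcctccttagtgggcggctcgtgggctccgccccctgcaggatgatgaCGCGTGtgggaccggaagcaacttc
Utp18 (chr11:93885767-93885886, minus strand): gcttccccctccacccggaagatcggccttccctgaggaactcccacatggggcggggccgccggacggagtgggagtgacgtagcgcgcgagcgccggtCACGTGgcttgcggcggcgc
Nop2 (chr6:125131763-125131882, plus strand): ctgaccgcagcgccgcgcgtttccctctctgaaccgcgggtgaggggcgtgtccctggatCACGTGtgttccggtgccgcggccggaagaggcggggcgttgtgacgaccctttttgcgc
Members with the canonical E-box in the window had a median log2 fold change of -0.57 over both lines (n = 9, -1.12 to -0.12), and those with a window lacking it had -0.63 (n = 27, -0.92 to -0.26). The ranges overlapped, and a match is a description of the sequence, not a binding site.

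All 6 genes of RNA polymerase I and its cofactors fell without EGF in each line. Of all tested genes, 33.3% fell in CTO19 and 33.1% in apsMC706. Over both lines the median log2 fold change of the 6 genes was -0.63. Tcof1 encodes treacle, a nucleolar scaffold that supports ribosomal RNA transcription (chr18:60813755-60848971, minus strand). It stood at 72.0 and 66.2 CPM in CTO19 noEGF against 136.0 and 130.3 CPM in CTO19 EM, and at 72.5 and 75.1 CPM in apsMC706 noEGF against 147 and 148 CPM in apsMC706 EM. The noEGF libraries of both lines sat together at the low end, 1.96-fold below EM over both lines (log2 fold change -0.97, SE 0.052, edgeR adjusted p = 4.74e-05). Mybbp1a encodes a nucleolar protein that binds the Myb factor and takes part in making ribosomal RNA. It had 289 and 273 CPM in CTO19 noEGF against 559 and 546 CPM in CTO19 EM, and 326 and 331 CPM in apsMC706 noEGF against 550.5 and 549 CPM in apsMC706 EM. That is 1.81-fold lower over both lines (log2 -0.86, SE 0.072, edgeR adjusted p = 0.000166).

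Polr1b, one of the large catalytic subunits of the polymerase, had the weakest evidence of the 6. Its level was 60.3 and 56.1 CPM in CTO19 noEGF against 106 and 99.2 CPM in CTO19 EM, and 129 and 132 CPM in apsMC706 noEGF against 165 and 160.2 CPM in apsMC706 EM. The fall was 1.77-fold in CTO19 and 1.25-fold in apsMC706, and the noEGF libraries of apsMC706 stood above the EM libraries of CTO19. Polr1a, which encodes the largest subunit, was 1.61-fold lower over both lines (edgeR adjusted p = 0.00023). Rrn3, which recruits the polymerase to the promoter, and Ubtf, the HMG-box factor that covers the ribosomal DNA, fell least of the 6, by 0.40 each on the log2 scale (edgeR adjusted p = 0.000647 for Rrn3 and 0.00249 for Ubtf).

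The 7 core proteins of the snoRNPs fell as a whole group over both lines, with a median of -0.80, against 23.3% of all tested genes. Nop56, Nop58 and fibrillarin (Fbl), the methyltransferase, form the box C/D particles, with Rrp9 specific to the U3 particle. Dyskerin (Dkc1), the pseudouridine synthase, forms the box H/ACA particles with Gar1 and Nhp2. Dkc1 was at 92.3 and 83.3 CPM in CTO19 noEGF against 178 and 182 CPM in CTO19 EM, and at 122 and 126 CPM in apsMC706 noEGF against 215 and 216 CPM in apsMC706 EM. The ranges of the media lay well apart in both lines, with Dkc1 1.89-fold lower over both (log2 -0.92, SE 0.070, edgeR adjusted p = 0.000126). Nop58 was at 161 and 149.5 CPM in CTO19 noEGF against 251 and 254 CPM in CTO19 EM, and at 185 and 182 CPM in apsMC706 noEGF against 319 and 312 CPM in apsMC706 EM. It was 1.67-fold lower (log2 -0.74, SE 0.055, edgeR adjusted p = 0.000118). Rrp9 was 1.82-fold lower (edgeR adjusted p = 0.00209) and Gar1 1.44-fold lower (0.000705).

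Fbl stood at 99.7 and 92.8 CPM in CTO19 noEGF against 162 and 171 CPM in CTO19 EM. In apsMC706 it stood at 114 and 116 CPM in noEGF against 237 and 236 CPM in EM, a wider gap than in CTO19. Nhp2 had the same pattern, with 75.5 and 77.1 CPM in CTO19 noEGF against 116 and 124 CPM in CTO19 EM, and 93.2 and 96.9 CPM in apsMC706 noEGF against 184.5 and 183 CPM in apsMC706 EM. Over both lines Fbl was 1.88-fold lower (edgeR adjusted p = 0.000126) and Nhp2 1.74-fold lower (edgeR adjusted p = 0.000258). Fbl shares 690 bases (99.6% identity) of sequence with a transcript annotated to Tulp4, so its counts are uncertain to that extent.

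Nop56 moved least of the group. It had 221 and 198 CPM in CTO19 noEGF against 322 and 315.5 CPM in CTO19 EM, and 331 and 340.3 CPM in apsMC706 noEGF against 425 and 409.7 CPM in apsMC706 EM. The media did not overlap within a line, and the change was 1.38-fold over both lines (log2 -0.46, SE 0.081, edgeR adjusted p = 0.0032). Nop56 has 3 processed pseudogene copies in the table whose counts came to 82.9% of its own. With those copies added its log2 fold change was -0.55 (edgeR adjusted p = 0.000856). Introns of 6 members hold 19 annotated snoRNA genes, 5 of them in Nop56, 4 in Nop58, 3 each in Ncl, Wdr43 and Gnl3, and 1 in Dkc1. The table held 14 of these with 29 to 61 counts per library in all, too few to describe after poly(A) selection.

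The 5 nucleolar chaperones and abundant nucleolar proteins all fell over both lines, against 23.3% of all tested genes. Their median was -0.75 and all lay between -0.92 and -0.68. Ncl encodes nucleolin, which binds nascent ribosomal RNA (chr1:86344719-86359400, minus strand). Its level was 928 and 873 CPM in CTO19 noEGF against 1707 and 1752 CPM in CTO19 EM, and 1192 and 1203 CPM in apsMC706 noEGF against 2204 and 2281 CPM in apsMC706 EM. Every noEGF library lay below every EM library across lines as well as within them, 1.90-fold lower over both lines (log2 -0.92, SE 0.071, edgeR adjusted p = 0.000126). Nolc1, a chaperone of snoRNPs, had 139 and 129 CPM in CTO19 noEGF against 238 and 237.5 CPM in CTO19 EM, and 189 and 198 CPM in apsMC706 noEGF against 327 and 328 CPM in apsMC706 EM. It was 1.73-fold lower (edgeR adjusted p = 9.73e-05).

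Npm1, nucleophosmin, had 920.0 and 866 CPM in CTO19 noEGF against 1574 and 1628 CPM in CTO19 EM, and 1268 and 1259 CPM in apsMC706 noEGF against 1799 and 1816 CPM in apsMC706 EM. The fall of 1.60-fold over both lines (log2 -0.68, SE 0.092, edgeR adjusted p = 0.00101) was -0.67 with its 1 counted pseudogene copy added, whose counts were 25.2% of those of Npm1. Npm3, a histone chaperone related to Npm1, and Ddx21, an RNA helicase of the nucleolus, were 1.68-fold and 1.64-fold lower. Per kilobase of annotated exon, Npm1 was the most abundant member in every group, with mean levels of 335 CPM per kb in CTO19 noEGF, 601 in CTO19 EM, 474 in apsMC706 noEGF and 678 in apsMC706 EM. Ncl and Nhp2 followed in that order in each group. These levels leave out counts of pseudogene copies, so the order of members with such copies, Nop56 among them, is uncertain.

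**Figure D2:**
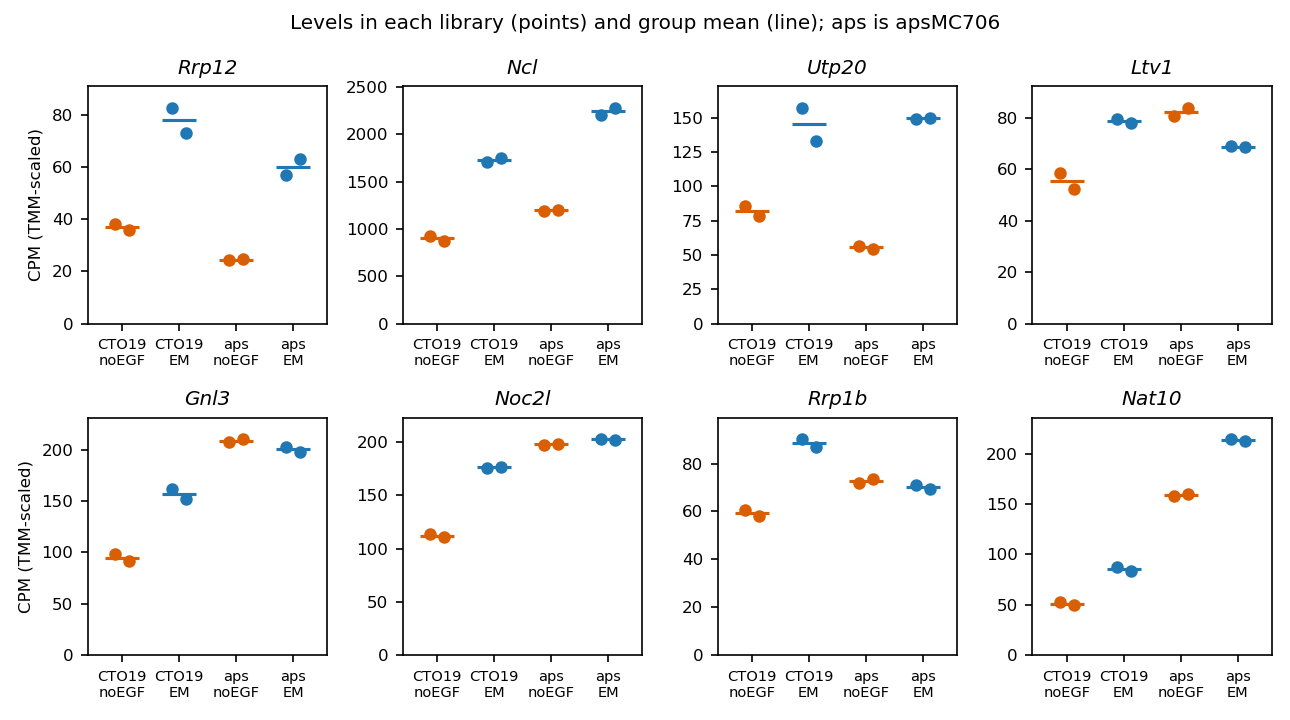
TMM-scaled CPM of 8 genes in each library (points) with the group mean (horizontal line), for noEGF (orange) and EM (blue) of each line. Rrp12, Ncl, Utp20 and Nat10 are lower in noEGF in both lines, whereas Ltv1, Gnl3, Noc2l and Rrp1b are lower in CTO19 noEGF, with Ltv1 higher in apsMC706 noEGF.

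The small subunit processome is the large particle that folds and cuts the part of the precursor that becomes the small subunit. All 10 of its members listed here fell over both lines, against 23.3% of all tested genes, with a median of -0.59. Noc4l had 42.4 and 40.7 CPM in CTO19 noEGF against 75.7 and 73.6 CPM in CTO19 EM, and 45.5 and 44.96 CPM in apsMC706 noEGF against 76.6 and 74.5 CPM in apsMC706 EM. The lines were at almost the same level in each medium, and noEGF was 1.73-fold lower over both (log2 -0.79, SE 0.051, edgeR adjusted p = 7.31e-05). Wdr75, a WD-repeat protein of the processome, had 63.8 and 65.7 CPM in CTO19 noEGF against 99.6 and 95.6 CPM in CTO19 EM, and 73.3 and 74.5 CPM in apsMC706 noEGF against 109.6 and 113 CPM in apsMC706 EM. It fell by 0.59 on the log2 scale in each line (edgeR adjusted p = 0.000132 over both). Heatr1, a large repeat protein, was 1.73-fold lower (edgeR adjusted p = 0.000299). The processome proteins Utp4, Utp15 and Wdr43 fell by 0.59, 0.56 and 0.53 on the log2 scale over both lines (edgeR adjusted p = 0.00107, 0.000248 and 0.00162), and Nat10 fell by 0.58 (0.000892).

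Utp20, a very large protein of the processome (chr10:88746607-88826804, minus strand), had the largest fall of any member in apsMC706. Its level there was 56.3 and 54.6 CPM in noEGF against 149 and 149.6 CPM in EM. In CTO19 it was 85.9 and 78.5 CPM in noEGF against 157 and 133 CPM in EM, so the EM libraries of both lines overlapped while the noEGF libraries did not. The change was 2.18-fold over both lines (log2 -1.12, SE 0.13, edgeR adjusted p = 0.000626). Utp18, at the other end, had 49.0 and 48.6 CPM in CTO19 noEGF against 74.5 and 78.3 CPM in CTO19 EM, and 66.0 and 67.8 CPM in apsMC706 noEGF against 74.5 and 72.3 CPM in apsMC706 EM. Its change was 1.31-fold over both lines (edgeR adjusted p = 0.0193), and that call was lost without CTO19 noEGF replicate 1 (edgeR adjusted p = 0.131) or replicate 2 (0.131). Nop14 likewise passed over both lines (log2 -0.46, edgeR adjusted p = 0.0157) but not without CTO19 noEGF replicate 1 (0.101) or replicate 2 (0.0938).

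Of the 4 factors of late 40S maturation and export, 3 fell over both lines, against 23.3% of all tested genes, and 1 did not pass. Rrp12, an export factor of pre-ribosomes (chr19:41862851-41896173, minus strand), had the largest fall of all 42 genes. Its level was 38.3 and 35.9 CPM in CTO19 noEGF against 83.02 and 73.3 CPM in CTO19 EM, and 24.3 and 24.9 CPM in apsMC706 noEGF against 57.3 and 63.2 CPM in apsMC706 EM. The noEGF libraries of both lines stood below every EM library, 2.27-fold lower over both lines (log2 -1.18, SE 0.077, edgeR adjusted p = 7.84e-05). Nob1, the endonuclease that makes the last cut of the small subunit RNA, had 37.2 and 37.1 CPM in CTO19 noEGF against 60.6 and 59.96 CPM in CTO19 EM, and 48.4 and 49.7 CPM in apsMC706 noEGF against 78.9 and 77.1 CPM in apsMC706 EM. It was 1.61-fold lower (edgeR adjusted p = 8.33e-05). Bysl, bystin, was 1.51-fold lower (edgeR adjusted p = 0.00139), although 361 bases of its exons overlap Ccnd3 on the other strand and the library kit does not mark strand.

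Ltv1, a factor that stays on the small subunit precursor until the cytoplasm (chr10:13178140-13193168, minus strand), moved in opposite directions in the lines. In CTO19 it had 58.7 and 52.5 CPM in noEGF against 79.8 and 77.99 CPM in EM. In apsMC706 it had 80.9 and 84.1 CPM in noEGF against 69.1 and 68.8 CPM in EM. The media were apart in both lines, with noEGF low in CTO19 (log2 -0.51, SE 0.052, edgeR adjusted p = 6.84e-07) and high in apsMC706 (log2 0.26, SE 0.051, edgeR adjusted p = 0.000387). Over both lines the log2 fold change was -0.12 (edgeR adjusted p = 0.535).

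Of the 10 factors of 60S assembly, 7 fell over both lines, against 23.3% of all tested genes, and 3 did not pass. The group median was -0.57. Bop1, Pes1 and Wdr12 form the PeBoW complex, which is needed to process the precursor of the large subunit RNA. Wdr12 had 37.5 and 33.1 CPM in CTO19 noEGF against 67.0 and 66.1 CPM in CTO19 EM, and 32.8 and 34.7 CPM in apsMC706 noEGF against 64.1 and 63.9 CPM in apsMC706 EM. Bop1 had 60.2 and 60.1 CPM in CTO19 noEGF against 94.95 and 99.3 CPM in CTO19 EM, and 64.6 and 65.7 CPM in apsMC706 noEGF against 120.0 and 112 CPM in apsMC706 EM. For both genes the noEGF libraries of both lines lay together below all EM libraries. Wdr12 was 1.89-fold lower over both lines (log2 -0.92, SE 0.058, edgeR adjusted p = 7.31e-05) and Bop1 1.69-fold lower (log2 -0.76, SE 0.055, edgeR adjusted p = 0.000107). Pes1, the third subunit, was 1.48-fold lower (edgeR adjusted p = 0.000328), and -0.56 on the log2 scale with its 2 pseudogene copies added.

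Nop2, a methyltransferase of the large subunit RNA, Rrs1, which helps to load the 5S particle, and Noc3l fell by 0.74, 0.55 and 0.63 on the log2 scale over both lines (edgeR adjusted p = 0.000591, 0.00257 and 0.000212). Nop16 also passed over both lines (log2 -0.58, SE 0.16, edgeR adjusted p = 0.0219). It did not pass without CTO19 EM replicate 1 (edgeR adjusted p = 0.0526), nor without CTO19 noEGF replicate 1 or 2 (0.117 each).

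Gnl3, Noc2l and Rrp1b separated the lines. Gnl3 encodes nucleostemin, a nucleolar GTPase known from stem and cancer cells (chr14:31012433-31019152, minus strand). It had 98.3 and 91.4 CPM in CTO19 noEGF against 162 and 152 CPM in CTO19 EM, but 207 and 210.3 CPM in apsMC706 noEGF against 203 and 198 CPM in apsMC706 EM. Noc2l, which escorts the large subunit precursor and also binds p53 and histones, had 113 and 111 CPM in CTO19 noEGF against 176 and 176 CPM in CTO19 EM, and 197 and 198 CPM in apsMC706 noEGF against 203 and 202 CPM in apsMC706 EM. Rrp1b had 60.5 and 58.1 CPM in CTO19 noEGF against 90.2 and 87.0 CPM in CTO19 EM, and 72.1 and 73.7 CPM in apsMC706 noEGF against 70.8 and 69.5 CPM in apsMC706 EM. In CTO19 noEGF all 3 genes fell, 1.66-fold for Gnl3 (edgeR adjusted p = 3.57e-09), 1.57-fold for Noc2l (1.2e-09) and 1.49-fold for Rrp1b (2.66e-08), while in apsMC706 the media differed by 0.06 or less on the log2 scale. Over both lines none of the 3 passed, with edgeR adjusted p = 0.115 for Gnl3, 0.0545 for Noc2l and 0.125 for Rrp1b. Noc2l passed (log2 -0.42 or -0.41) without apsMC706 EM replicate 1 (edgeR adjusted p = 0.046), apsMC706 EM replicate 2 (0.0467) or apsMC706 noEGF replicate 2 (0.0475). Its exons overlap those of Samd11 on the other strand by 598 bases, and Samd11 had 26 counts over all libraries.

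Taking the lines one at a time, all 42 genes fell in CTO19 noEGF, against 33.3% of all tested genes. Their median log2 fold change was -0.76, and single genes lay between -1.20 (Rrp9, 2.30-fold lower) and -0.29 (Ubtf, 1.22-fold lower). In apsMC706, 38 of 42 fell, against 33.1% of all tested genes, and 1 gene, Ltv1, rose, against 34.1%. The median there was -0.56 and the range ran between -1.43 (Utp20, 2.69-fold lower) and 0.26 (Ltv1). The 3 that did not pass in apsMC706 were Gnl3 (log2 0.06), Rrp1b (0.05) and Noc2l (-0.03). With DESeq2 size factors Gnl3 and Rrp1b passed upward in apsMC706 (log2 0.12 and 0.11, edgeR adjusted p = 0.0301 and 0.0344), also without either CTO19 noEGF library (0.15 and 0.14). Under the same scaling Noc2l turned to 0.03, not called, and the apsMC706 calls of Utp18 and Nop16 were lost (edgeR adjusted p = 0.139 and 0.0683). Both noEGF libraries lay below both EM libraries for 42 members in CTO19 and for 39 in apsMC706, patterns that 40.9% of all tested genes had in each line.

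The size of the response differed between the lines for 27 of the 42 genes, against 56.0% of all tested genes, so that differing at all was about as common among genes at large. In the test of the response of CTO19 minus the response of apsMC706, 22 members passed with a more negative response in CTO19 (25.6% of all tested genes) and 5 with a more negative response in apsMC706 (30.4%), while 15 did not pass. The median difference was -0.23, against 0.06 for all tested genes. Differences toward a line are those with the more negative response there. Largest toward CTO19 were Nop16 (difference -0.82, SE 0.080, edgeR adjusted p = 6.11e-07), Gnl3 (-0.79, SE 0.064, 8.81e-08), Ltv1 (-0.77, SE 0.073, 4.98e-07), Rrp9 (-0.68, SE 0.070, 9.6e-07), Rrp1b (-0.63, SE 0.062, 6.45e-07) and Noc2l (-0.62, SE 0.052, 1.18e-07). Nop16 and Rrp9 are named for their size and not by the rule for naming genes. Rrp9 stood at 26.4 and 25.4 CPM in CTO19 noEGF against 59.4 and 59.8 CPM in CTO19 EM, and at 36.9 and 39.04 CPM in apsMC706 noEGF against 54.0 and 55.0 CPM in apsMC706 EM. Its EM levels were close in the lines and its noEGF levels were not.

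Toward apsMC706 stood Utp20 (difference 0.61, SE 0.11, edgeR adjusted p = 0.000692), Nhp2 (0.30, SE 0.062, 0.000698), Fbl (0.25, SE 0.062, 0.00292), Ubtf (0.22, SE 0.063, 0.00799) and Pes1 (0.18, SE 0.057, 0.0125). The smaller of these shrank under several alternatives. Without CTO19 noEGF replicate 1 the difference was 0.12 for Fbl, 0.15 for Ubtf and 0.11 for Pes1. Without CTO19 noEGF replicate 2 it was 0.13 for Ubtf and 0.096 for Pes1. Without the filter on low counts, Ubtf (0.13, edgeR adjusted p = 0.0758) and Pes1 (0.098, edgeR adjusted p = 0.263) did not pass. By role, the nucleolar chaperones had 3 of 5 differences toward CTO19 and 0 toward apsMC706, against 25.6 and 30.4% of all tested genes. The small subunit processome and 60S assembly each had 6 of 10 and 1. Late 40S factors had 2 of 4 and 0, and RNA polymerase I genes 2 of 6 and 1. The snoRNP proteins were split, with 3 of 7 toward CTO19 and 2 toward apsMC706. Tcof1, Ncl, Nob1, Wdr12 and Wdr75 were among the 15 whose difference did not pass, which does not show that their responses were equal.

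**Figure D3:**
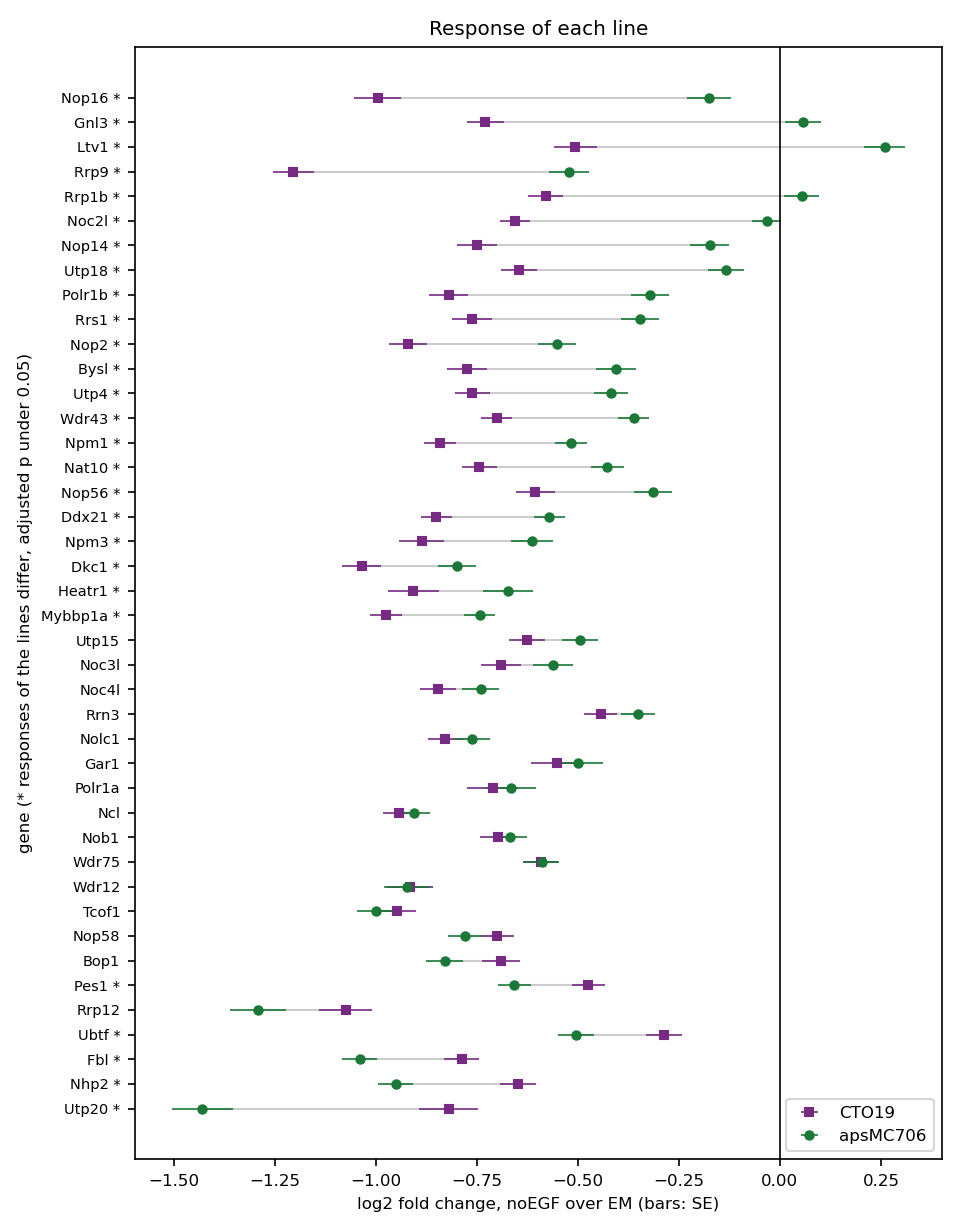
Log2 fold change of noEGF over EM for each of the 42 genes in CTO19 (purple squares) and apsMC706 (green circles), with SE as bars, ordered by the difference of the responses; an asterisk marks genes whose responses differed at an adjusted p under 0.05. All CTO19 values lie below 0, 3 apsMC706 values lie above 0, and the widest gaps are at Nop16 and Gnl3.

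Lines also differed in level within a medium. Without EGF, 33 of 42 genes were lower in CTO19 than in apsMC706 (34.3% of all tested genes) and 4 were higher (45.7%). In EM, 22 were lower (33.8%) and 8 higher (37.5%). The median difference of CTO19 minus apsMC706 was -0.33 in noEGF, against 0.13 for all tested genes, and -0.13 in EM, against 0.03. The snoRNP proteins and the nucleolar chaperones made the clearest groups. In noEGF, 7 of 7 and 5 of 5 were lower in CTO19, and in EM 6 of 7 and 5 of 5 were lower, Rrp9 being the exception.

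Nat10 had the largest line difference and is named for it after its values were seen. It encodes the acetyltransferase that modifies the small subunit RNA (chr2:103721256-103761270, minus strand). It had 52.5 and 49.9 CPM in CTO19 noEGF against 158 and 160.2 CPM in apsMC706 noEGF, and 87.5 and 83.8 CPM in CTO19 EM against 215 and 213 CPM in apsMC706 EM. The lines were apart in both media, CTO19 being 3.11-fold lower in noEGF (log2 -1.64, SE 0.043, edgeR adjusted p = 4.88e-14) and 2.50-fold lower in EM (log2 -1.32, SE 0.042, edgeR adjusted p = 4.77e-13). Polr1b was 2.24-fold and Gnl3 2.20-fold lower in CTO19 in noEGF. Higher in CTO19 in both media were Rrn3 (log2 0.34 in noEGF and 0.43 in EM) and Rrp12 (0.59 and 0.38). Utp20 (0.57) and Ubtf (0.20) were higher in CTO19 in noEGF, and the call of Ubtf was lost without CTO19 noEGF replicate 2 (edgeR adjusted p = 0.0789). Bysl, Ltv1, Rrp1b, Heatr1, Rrp9 and Rrs1 were higher in CTO19 in EM by 0.11 to 0.37 on the log2 scale. Of these, Heatr1 (edgeR adjusted p = 0.101 and 0.0737), Rrp9 (0.158 and 0.0734) and Rrs1 (0.129 and 0.22) did not pass without apsMC706 EM replicate 1 or replicate 2, which left 5 genes higher in either case.

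Genes of the same processes outside the 42 are set beside them here. Of all tested genes, 23.3% were lower in noEGF over both lines and 25.5% higher. Of 43 other small subunit processome and 40S factors, 34 were lower in noEGF over both lines and 0 higher, with a median of -0.50. Of 47 other 60S factors, 34 were lower and 0 higher, with a median of -0.41. Pno1, the partner of Nob1, was 1.87-fold lower (edgeR adjusted p = 7.18e-05) and Wdr3 1.47-fold lower (0.000152). Mrto4, which readies the large subunit for its stalk, was 1.86-fold lower (0.000112) and Rrp15 1.84-fold lower (0.000106). The other snoRNP and snoRNP assembly genes had 11 of 13 lower and 0 higher, with Ruvbl1, an ATPase of the assembly chaperone, 2.01-fold lower (edgeR adjusted p = 9.91e-05) and Snu13 1.60-fold lower (0.000147). The nuclear exosome, which trims the precursor, had 11 of 13 tested genes lower and 0 higher, with the nuclease Dis3 1.70-fold lower (0.000147) and Exosc8 1.69-fold lower (0.000216).

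The other RNA polymerase I and ribosomal DNA factors moved less, with 7 of 18 lower (38.9%) and 1 higher and a median of -0.17. Among all tested genes 23.3% were lower and 25.5% higher. Cd3eap, a polymerase I subunit, was 1.63-fold lower (edgeR adjusted p = 0.000247), Polr2h, shared by the nuclear polymerases, was 1.42-fold lower (0.000689), and Ttf1, the terminator-binding factor, was 1.11-fold higher (0.045). The call of Ttf1 was lost with the replicate block (edgeR adjusted p = 0.0854), without the filter on low counts (0.0721), and without any 1 of the EM libraries or the apsMC706 noEGF libraries (0.0803 to 0.132). RNA polymerase III, which makes 5S and transfer RNA, had 11 of 22 genes lower and 2 higher, with a median of -0.19. Polr3g was 1.65-fold lower (edgeR adjusted p = 0.000219), whereas its alternative subunit Polr3gl was 2.69-fold higher (0.00093) and Maf1, the repressor of the polymerase, 1.42-fold higher (0.000333). Polr3gl had 7.08 and 7.11 CPM in CTO19 noEGF against 3.76 and 3.43 CPM in CTO19 EM, and 12.7 and 13.4 CPM in apsMC706 noEGF against 3.52 and 3.65 CPM in apsMC706 EM.

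The cytosolic ribosomal proteins, the partners of the RNA that these factors assemble, went apart between the lines. Over both lines 6 of 78 were lower and 0 higher, against 23.3 and 25.5% of all tested genes, with a median of -0.03. In CTO19 75 of 78 fell (median -0.37), against 33.3% of all tested genes. In apsMC706 61 of 78 rose and 6 fell (median 0.31), against 34.1 and 33.1% of all tested genes. The difference of the responses passed for 74 of 78, all toward CTO19 (median -0.66), as for 25.6% of all tested genes. With DESeq2 size factors the counts were 74 lower in CTO19, and 63 higher and 2 lower in apsMC706. Rps2 was 1.61-fold lower over both lines (edgeR adjusted p = 0.000371) and Rpl35 1.27-fold lower (0.00922), a call lost without CTO19 noEGF replicate 1 (0.0856) or replicate 2 (0.0852). Ribosomal protein genes have many processed pseudogenes, so reads may be split between copies. In apsMC706 the median of the 42 genes was -0.56 while that of the ribosomal proteins was 0.31. In CTO19 both medians were below 0.

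**Figure D4:**
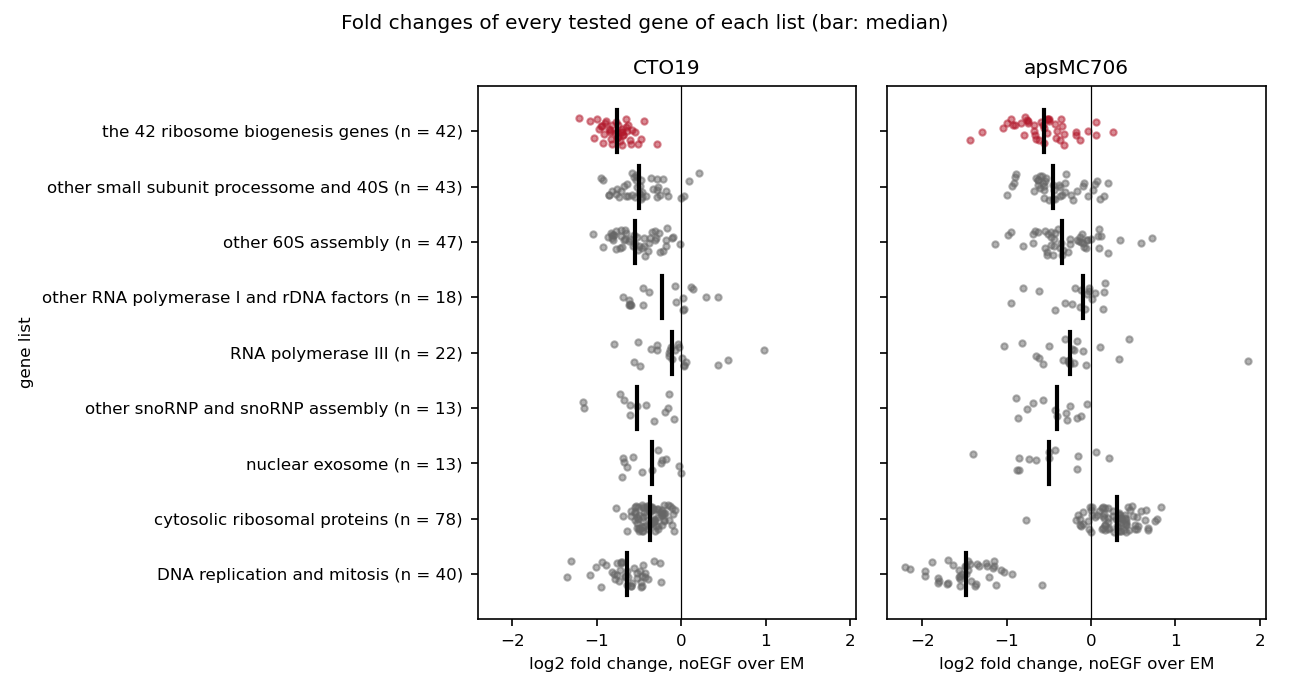
Log2 fold change of noEGF over EM of every tested gene in the 42-gene set (red) and 8 related lists (grey), in CTO19 and apsMC706; black bars are medians. The 42 genes have medians of -0.76 in CTO19 and -0.56 in apsMC706, the ribosomal proteins -0.37 and 0.31, and the DNA replication and mitosis genes -0.64 and -1.48.

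The order of the lines was not the same for every list. DNA replication and mitosis genes, lower in both lines for 40 of 40, had their larger fall in apsMC706, where the median was -1.48 against -0.64 in CTO19. Of these 40, 38 had a difference of responses toward apsMC706 and 0 toward CTO19, against 30.4 and 25.6% of all tested genes. For the 42 ribosome biogenesis genes the counts were 5 toward apsMC706 and 22 toward CTO19. Anln, which organises the cleavage furrow, was 2.43-fold lower over both lines (edgeR adjusted p = 4.02e-05) and the mitotic kinase Aurka 2.24-fold lower (4.05e-05).

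For 15 of the 42 genes exons overlap another annotated gene, 14 on the other strand and Ncl with a microRNA on its own strand. Only reads within the shared bases, 5 (Nop56) to 598 (Noc2l) per gene, cannot be told apart from those of the partner in these unstranded libraries. The overlap is widest for Noc2l and Bysl, given above.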

How the data were processed

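Poly(A)-selected RNA of 8 libraries was analysed from 1 deposited table of raw counts per Ensembl gene. Per the labels' protocols, libraries were made with a kit that does not mark strand and 8 cycles of amplification. STAR 2.7.0a and the mm10 build come from the submitters' processing notes; how reads were counted, on which annotation and with which strand setting, is not given in the sources used here. Members and gene lists were chosen with earlier results of these data known, so lists are described by counts and medians and not tested as sets. Genes were kept by filterByExpr over the 4 groups, which left 16719 genes with 99.971% of counts.

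Counts were scaled by TMM factors and tested with the robust quasi-likelihood F-test of edgeR 4.0.16 in R 4.3.3, two-sided, with Benjamini-Hochberg adjustment over all tested genes and a threshold of 0.05. The comparison over both lines was fitted with line beside medium, leaving 5 residual degrees of freedom at a biological coefficient of variation of 16.9%. All other comparisons came from a model of the 4 group means, leaving 4 at 4.27%. The code was tested on simulated data in which both lines had the same response. That test therefore says nothing about data in which the responses of the lines differ, as here. Alternatives were DESeq2 size factors, the Wald test of DESeq2 1.42.0, no filter, a replicate block, no line term, summed libraries, each library left out and, chosen after seeing the data, pseudogene copies added (at least 95% identity over 300 bases).

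Values of every library are given, within each of 6 roles, for the 2 genes of smallest and the 1 of largest p over both lines, for genes that rose or missed the threshold, and for the 3 strongest differences of response in each direction. Other lists contribute the 2 genes of smallest p per direction. Per-kilobase levels divide by the union of annotated exons. Promoter sequences are RefSeq's (GRCm38.p6). The planned protein features were not analysed here. Same-numbered replicates were not treated as pairs. Counts without molecular identifiers carry counting error at every level, and the floor of 3 counts served only to describe low cell type markers.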

Additional observations from a re-analysis of the deposited data

Results flagged for a closer look

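The response to EGF withdrawal differed between the lines for 27 of the 42 genes by the test of the difference itself, the line-by-medium term in edgeR, a share near the 56.0% of all tested genes. Values are the log2 response in CTO19 minus that in apsMC706, so negative values mean a more negative response in CTO19. Ltv1 (-0.77) fell in CTO19 and rose in apsMC706, while Gnl3 (-0.79), Noc2l (-0.62) and Rrp1b (-0.63) fell in CTO19 and did not pass in apsMC706. Among 60S assembly factors, Nop16 differed by -0.82, Rrs1 by -0.41, Nop2 by -0.37 and Pes1 by 0.18. Among small subunit processome proteins, Nop14 differed by -0.58, Utp18 by -0.51, Utp4 by -0.34, Wdr43 by -0.34, Nat10 by -0.32, Heatr1 by -0.23 and Utp20 by 0.61. Bysl differed by -0.37. Among snoRNP proteins, Rrp9 differed by -0.68, Nop56 by -0.29, Dkc1 by -0.24, Fbl by 0.25 and Nhp2 by 0.30. The nucleolar chaperones Npm1 (-0.33), Ddx21 (-0.28) and Npm3 (-0.27) leaned toward CTO19. Of the RNA polymerase I genes, Polr1b (-0.50) and Mybbp1a (-0.23) leaned toward CTO19 and Ubtf (0.22) toward apsMC706. Calls lost with 1 library left out were those of Heatr1 (edgeR adjusted p up to 0.151, without CTO19 EM replicate 1), Dkc1 (0.0594) and Npm3 (0.0571), both without apsMC706 noEGF replicate 2, Fbl (0.11, without CTO19 noEGF replicate 1), Ubtf (up to 0.105) and Pes1 (up to 0.218), both without CTO19 noEGF replicate 2. Line and labelled sex cannot be told apart in these differences.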

How the results depend on the processing

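DESeq2 size factors, no filter on low counts, the DESeq2 Wald test, the replicate block and added pseudogene copies left the count of genes lower over both lines at 38. Without a line term it was 28, and with summed libraries 0. In CTO19 all 42 passed under every alternative run there. In apsMC706 the genes called higher were 3 with DESeq2 size factors and 3 without the filter, against 1. Differences of response toward apsMC706 were 3 without the filter and 3 with the DESeq2 Wald test, against 5. Noc2l in apsMC706 turned to 0.025 with size factors, 0.034 without the filter, 0.025 with the Wald test and ranged between -0.048 and 0.055 with 1 library left out. The apsMC706 calls of Utp18, Nop14 and Nop16 were lost without the filter (edgeR adjusted p = 0.304, 0.0503 and 0.0711). Leaving mitochondrially encoded genes out of the total, the members' share was 0.557% in CTO19 noEGF against 0.899% in CTO19 EM, and 0.723% in apsMC706 noEGF against 1.08% in apsMC706 EM. The cause of these shifts was not tested.

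With each library left out in turn, the count lower was 35 to 39 over both lines, 35 to 38 in apsMC706 (higher 1 to 3) and 42 to 42 in CTO19. The difference of responses gave 19 to 28 lower and 2 to 6 higher. The line difference gave 28 to 36 lower and 3 to 4 higher in noEGF, and 20 to 23 lower and 5 to 8 higher in EM. Ltv1 over both lines ranged between -0.21 and 0.05, above 0 (0.052) without CTO19 noEGF replicate 2. Correlations between same-numbered replicates' deviations were 0.0199 to 0.175. Such values cannot decide whether same-numbered libraries share a culture or day, which the labels do not state. The replicate block gave 38 genes lower over both lines, 38 lower and 1 higher in apsMC706, 42 lower in CTO19, and 22 lower and 5 higher for the difference, and changed no call of the 42 genes in these comparisons. In the other lists over both lines it gave 6 lower and 0 higher for RNA polymerase I factors, 10 lower for RNA polymerase III, 32 for 60S factors, 9 for snoRNP genes and 5 for ribosomal proteins, against 7 and 1, 11, 34, 11 and 6. Without the filter 2 ribosomal proteins were lower. With 2 lines and a single genotype, these counts describe these libraries. The lowest count of a member in any library was 890.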
